A study of Homo sapiens with 17 samples.

Results

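The genes described here are 42 genes of ribosome biogenesis and the nucleolus, chosen by name out of 60662 genes in the count table of an RNA-Seq experiment on Ishikawa cells. Ishikawa cells are an established human endometrial adenocarcinoma line used as a model of the endometrial epithelium, and being 1 cancer line they stand for no normal tissue. The list holds 6 genes of RNA polymerase I transcription, 9 nucleolar organisers and chaperones, 3 core proteins each of the box C/D and the box H/ACA snoRNP, 10 genes of the small subunit processome and 40S assembly and 11 genes of 60S assembly. All 42 passed the filter on low counts in each comparison.

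Ribosome production starts in the nucleolus, where RNA polymerase I transcribes the ribosomal DNA into a long precursor. Small nucleolar ribonucleoproteins (snoRNPs) then guide the modification of this precursor, box C/D particles by 2′-O-methylation and box H/ACA particles by pseudouridylation. The small subunit processome and a series of 60S assembly factors fold, cleave and trim it around the ribosomal proteins, and many genes of the pathway are known targets of MYC in growing cells.

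Cells were cultured in charcoal-stripped serum. There were 3 control cultures in untreated medium and 3 vehicle control cultures given ethanol as the vehicle for 24 h. A further 2 cultures were given a vehicle that the labels call only Nap, and 3 were given Nap and progesterone (P4), each for 24 h. The labels state the ethanol as 70%, and a figure legend of the paper states a lower percentage. The titles of the vehicle control name Nap as well as EtOH, and the labels of the P4 cultures do not name ethanol. The P4 concentration is stated differently in the labels and in the paper, so none is given here. Another 6 libraries had recombinant PSAT1, some of them together with P4. Their titles contradict their column names on which of them had P4, and they entered no comparison. Total counts ran from 12712177 to 19704493 in control, from 4999521 to 13403346 in vehicle control, from 11941642 to 14111838 in Nap and from 10786880 to 14095023 in P4 cultures. Markers of epithelial cells (EPCAM, KRT8, KRT18, KRT19, CDH1 and CLDN4) were present in every culture, with a summed level in CPM (the read count relative to library size, scaled by TMM) of 1215 to 1454 in control, 1252 to 1262 in vehicle control, 1151 to 1308 in Nap and 966 to 1109 in P4 cultures. The P4 range lay below the others, and against vehicle control 4 of the 6 genes were called lower, the lowest being CLDN4 at -1.42 ± 0.10 (SE, adjusted p = 4.47e-07), and CDH1 was called higher. The immune markers PTPRC, CD3E, CD14 and CD68 summed to at most 1.55 CPM and the endothelial markers PECAM1, CDH5 and VWF to at most 1.54 CPM, with CDH5 at 0 counts in all 11 cultures. Of 6 fibroblast markers, COL1A1, COL1A2 and COL3A1 made up nearly all of a summed level of 418 to 621 CPM in control, 343 to 358 in vehicle control, 418 to 611 in Nap and 127 to 179 in P4 cultures, while DCN and PDGFRB were at 0 in every P4 culture. Against vehicle control COL1A2 fell by 1.67 ± 0.24 on the log2 scale (SE, adjusted p = 0.0014) and COL1A1 by 0.44 ± 0.11 (SE, adjusted p = 0.00452), while COL3A1 was not called at -0.14 ± 0.11 (SE, adjusted p = 0.309), so the lower sum is mostly that of COL1A2. Both summed levels were lower in P4 cultures, together with the changes given below, and their part in them was not tested. In bulk RNA, fewer cells of a type and less RNA per cell cannot be told apart.

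A gene is called here when its adjusted p (edgeR quasi-likelihood test, Benjamini-Hochberg over all genes tested) is under 0.05. Set against vehicle control, P4 cultures had 8 of the 42 genes higher and 12 lower, and the other 22 were not called. The largest falls were in POLR1A and UBTF of the polymerase I machinery, the largest rises in GNL3 and RRN3. The 20 calls are 47.6% of the list, and 53% of the 16540 genes tested were called, so the list was not called more often than genes at large. By direction, 26.6% of all genes were called higher and 26.5% lower. The changes were small: no member moved by more than 1 log2 unit, and the log2 fold changes ran from -0.82 to 0.60 with a median of -0.10, beside -0.01 over all genes. With upper-quartile instead of TMM scaling the median over all genes moved to -0.10 and the split of the members to 7 higher and 19 lower. The split was even with DESeq2 (8 and 8) and without vehicle control replicate 2 (7 and 7). P4 and vehicle control levels did not overlap for 26 of the 42 members, or 61.9%, and for 60.3% of all genes. The 3 vehicle control cultures also enter the comparison with control below. Without P4 replicate 1, 13 members were called higher.

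**Figure D1:**
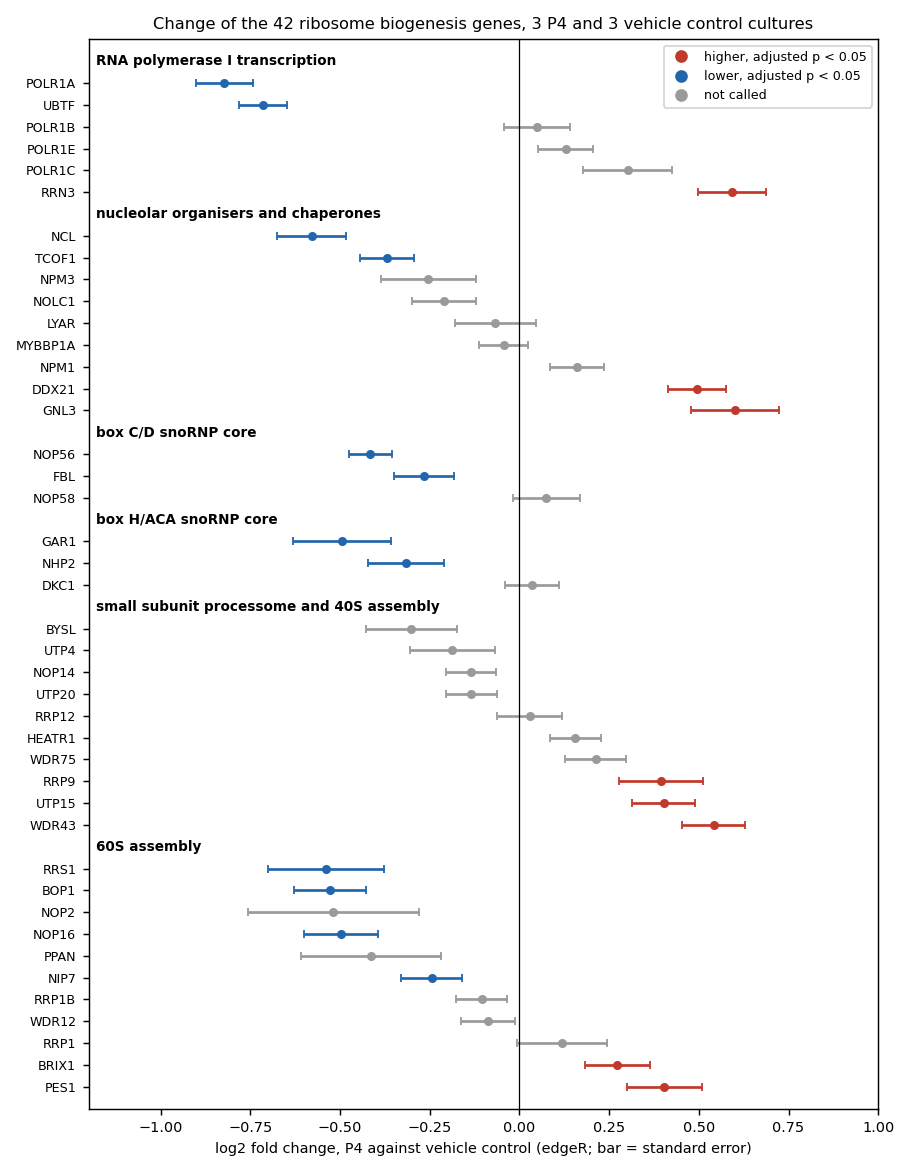
Log2 fold change of each of the 42 genes in 3 P4 against 3 vehicle control cultures, by role, with the standard error from edgeR as a bar. Red marks the 8 genes called higher, blue the 12 called lower and grey the 22 not called. Genes called in both directions stand in the polymerase I, organiser and 60S groups, while the snoRNP groups hold lower calls and the 40S group higher calls.

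The promoters are shown next because many ribosome biogenesis genes are known to carry the E-box CACGTG, the letters bound by MYC with its partner MAX. RefSeq windows on GRCh38.p14, from 250 bases before to 50 after an annotated start, were at hand for 34 of the members, and CACGTG, which reads the same on both strands, was found in a window of 14 of them (41.2%). Of the tested protein-coding genes with a window, 1274 of 10230 (12.5%) held it, as did 8.77% of all 27305 genes with a window. Counted by window, it was in 32.6% of the 43 windows of members and 7.26% of all 35116 windows. Among members with a window it was found in 5 of 8 called higher against vehicle control, 2 of 9 called lower and 7 of 17 not called. Shares by call were not worked out for all genes, so this split has no background beside it. Of the 8 members with no window, BOP1, RRS1 and TCOF1 were called lower. NOLC1, NOP58, POLR1E, RRP12 and RRP1B, the rest of them, were not called. A match is a description of the letters and does not show that a factor binds there. The stretches below hold the match (in capitals) in the 8 members with the largest fold change among those holding one. They are read 5′ to 3′ along the gene. Those of NOP2, GAR1 and BYSL end with the match, so no bases after it are shown.
GNL3, chr3:52686014-52686061, plus strand: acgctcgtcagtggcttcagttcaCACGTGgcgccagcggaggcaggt
WDR43, chr2:28894646-28894696, plus strand: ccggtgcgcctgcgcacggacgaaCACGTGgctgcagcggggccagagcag
NOP2, chr12:6568251-6568280, minus strand: cggccgaaagctaggtccggattgCACGTG
DDX21, chr10:68956592-68956645, plus strand: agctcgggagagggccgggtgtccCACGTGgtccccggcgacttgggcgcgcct
GAR1, chr4:109815769-109815798, plus strand: tgcgcaaggccagggccagaggggCACGTG
PES1, chr22:30591881-30591921, minus strand: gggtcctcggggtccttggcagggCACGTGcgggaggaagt
RRP9, chr3:51941880-51941933, minus strand: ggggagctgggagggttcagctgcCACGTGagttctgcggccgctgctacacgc
BYSL, chr6:41921503-41921532, plus strand: gcatcctggcctttcttcagtcccCACGTG
GNL3, WDR43, DDX21, PES1 and RRP9 were called higher, GAR1 lower, and NOP2 and BYSL were not called. The match begins 31 bases before the annotated start in DDX21 and 5 before it in RRP9, and after the start in the other 6 of the 8.

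The 6 polymerase I genes split. Gene positions are given on GRCh38 from GENCODE 29. Here and below, statements on all other cultures cover only the 11 cultures with a group. P4 cultures had less POLR1A, the largest and catalytic subunit of the enzyme, less UBTF, which binds ribosomal DNA along its length, and more RRN3, the factor that brings the polymerase to the promoter. POLR1A (ENSG00000068654.16, chr2:86020216-86106155, minus strand) was at 176, 126 and 157 CPM in the control cultures, 154, 175 and 179 in the vehicle control cultures, 171 and 142 in the Nap cultures and 104, 90.8 and 96.4 in the P4 cultures. All 3 P4 cultures lay below every other culture, and the log2 fold change against vehicle control was -0.82 ± 0.08 (SE, adjusted p = 4.09e-06). UBTF (ENSG00000108312.15, chr17:44205033-44221626, minus strand) was at 202, 209 and 186 CPM in the control cultures, 178, 196 and 182 in the vehicle control cultures, 195 and 202 in the Nap cultures and 109, 115 and 118 in the P4 cultures. Again the P4 cultures lay apart from all others, at a log2 fold change of -0.71 ± 0.07 (SE, adjusted p = 3.22e-06). RRN3 (ENSG00000085721.12, chr16:15060022-15094317, minus strand) was at 45.1, 43.8 and 50.4 CPM in the control cultures, 40.1, 44.6 and 37.8 in the vehicle control cultures, 45.6 and 43.2 in the Nap cultures and 55.5, 67.2 and 64.1 in the P4 cultures. The P4 cultures were the 3 highest and overlapped with none, with a log2 fold change of 0.59 ± 0.09 (SE, adjusted p = 0.00021). RRN3 has pseudogene copies, and reads that align to more than 1 place were not counted. POLR1B, the second largest subunit, was at 72.2, 57.4 and 72.4 CPM in the control cultures, 57.9, 62.9 and 59.5 in the vehicle control cultures, 76.6 and 63.9 in the Nap cultures and 54.2, 69.9 and 64.8 in the P4 cultures. Its groups overlapped throughout, and its log2 fold change was 0.05 ± 0.09 (SE, adjusted p = 0.672), with a sign that turned under upper-quartile scaling. POLR1C, a subunit shared with RNA polymerase III, and POLR1E, specific to RNA polymerase I, were not called, at 0.30 ± 0.12 (SE, adjusted p = 0.0576) and 0.13 ± 0.08 (SE, adjusted p = 0.176).

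Of the 9 nucleolar organisers and chaperones, 2 fell and 2 rose against vehicle control. NCL (nucleolin, ENSG00000115053.16, chr2:231453531-231483641, minus strand), an abundant RNA-binding protein of the nucleolus, was at 704, 581 and 563 CPM in the control cultures, 511, 643 and 576 in the vehicle control cultures, 578 and 533 in the Nap cultures and 339, 426 and 406 in the P4 cultures. Every P4 culture was below every other, and the log2 fold change was -0.58 ± 0.10 (SE, adjusted p = 0.000268). NCL alone made up 13.9 to 16.4% of the summed CPM of the 42 genes in vehicle control and 10.2 to 10.8% in P4 cultures. TCOF1 (treacle), which ties RNA polymerase I to the early snoRNPs, fell by less, at -0.37 ± 0.08 (SE, adjusted p = 0.00131). GNL3 (nucleostemin, ENSG00000163938.17, chr3:52681156-52694492, plus strand), a nucleolar GTPase linked to 60S maturation and cell proliferation, was at 139.9, 122 and 139.6 CPM in the control cultures, 114, 109.7 and 107 in the vehicle control cultures, 145 and 123 in the Nap cultures and 130.2, 201 and 174 in the P4 cultures. The P4 cultures were all above vehicle control, but replicate 1 lay inside the range of control and Nap cultures. Its log2 fold change was 0.60 ± 0.12 (SE, adjusted p = 0.00163). DDX21, an RNA helicase of rRNA transcription and processing, was at 355, 266 and 348 CPM in the control cultures, 265, 279 and 267 in the vehicle control cultures, 342 and 281 in the Nap cultures and 334, 426 and 395 in the P4 cultures. P4 replicate 1 was again the lowest of the 3 and within the control range, with a log2 fold change against vehicle control of 0.50 ± 0.08 (SE, adjusted p = 0.000268). MYBBP1A, a nucleolar regulator of rRNA synthesis, was at 82.7, 53.6 and 59.9 CPM in the control cultures, 69.0, 72.1 and 69.6 in the vehicle control cultures, 74.8 and 59.4 in the Nap cultures and 66.7, 69.9 and 69.9 in the P4 cultures. These groups overlapped, and the log2 fold change was -0.04 ± 0.07 (SE, adjusted p = 0.607). NPM1 (nucleophosmin), NPM3, NOLC1 and LYAR were not called, with log2 fold changes of 0.16, -0.25, -0.21 and -0.07.

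Each snoRNP core had its members called lower or not called. In the box C/D core, NOP56 (ENSG00000101361.17, chr20:2652145-2658393, plus strand), one of the paired scaffold proteins, was at 202, 178 and 178 CPM in the control cultures, 162, 159 and 156 in the vehicle control cultures, 217 and 171 in the Nap cultures and 119, 118 and 124 in the P4 cultures. The P4 cultures lay close together and below all others, at a log2 fold change of -0.42 ± 0.06 (SE, adjusted p = 0.000108). FBL (fibrillarin), the methyltransferase of these particles, was at 61.0, 62.3 and 56.4 CPM in the control cultures, 52.3, 57.7 and 61.8 in the vehicle control cultures, 54.3 and 54.4 in the Nap cultures and 48.5, 46.0 and 50.8 in the P4 cultures. Its P4 cultures were also the 3 lowest, with a log2 fold change of -0.27 ± 0.08 (SE, adjusted p = 0.0171). NOP58, the partner of NOP56 in the scaffold, was at 148, 132 and 139 CPM in the control cultures, 120.0, 117 and 109 in the vehicle control cultures, 139 and 133 in the Nap cultures and 109, 143 and 116 in the P4 cultures. P4 replicate 2 was above and replicate 1 just below the vehicle control range, and the log2 fold change was 0.08 ± 0.09 (SE, adjusted p = 0.517), with a sign that turned under upper-quartile scaling and without P4 replicate 2. Whether NOP58 differed from NOP56 was not tested.

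In the box H/ACA core, GAR1, a small protein of the particle, was at 14.1, 11.5 and 12.7 CPM in the control cultures, 11.1, 13.9 and 12.1 in the vehicle control cultures, 10.5 and 11.2 in the Nap cultures and 7.89, 9.46 and 9.54 in the P4 cultures. P4 cultures were below all others, at a log2 fold change of -0.49 ± 0.14 (SE, adjusted p = 0.00922). NHP2, an RNA-binding core protein, was at 38.7, 41.1 and 36.1 CPM in the control cultures, 27.6, 33.9 and 31.1 in the vehicle control cultures, 36.8 and 35.3 in the Nap cultures and 23.6, 24.0 and 28.2 in the P4 cultures. Its highest P4 culture overlapped with its lowest vehicle control culture, which was the shallowest library, and its log2 fold change was -0.32 ± 0.11 (SE, adjusted p = 0.024). The call was lost with DESeq2 for FBL, GAR1 and NHP2 (adjusted p = 0.0757, 0.0506 and 0.0939), and without vehicle control replicate 2 as well (adjusted p = 0.0638, 0.0738 and 0.148). Without vehicle control replicate 3 it was also lost for FBL and NHP2 (adjusted p = 0.113 and 0.0720), and without P4 replicate 2 for NHP2 (adjusted p = 0.0543). RMND5B overlaps 27.4% of the exon bases of NHP2 on the opposite strand, and the strand setting of the counting is not stated. DKC1 (dyskerin), the pseudouridine synthase, was at 107, 86.8 and 97.6 CPM in the control cultures, 86.8, 87.4 and 85.1 in the vehicle control cultures, 106 and 82.0 in the Nap cultures and 80.2, 93.4 and 94.5 in the P4 cultures. The groups overlapped, and its log2 fold change was 0.04 ± 0.07 (SE, adjusted p = 0.712), below 0 under upper-quartile scaling.

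**Figure D2:**
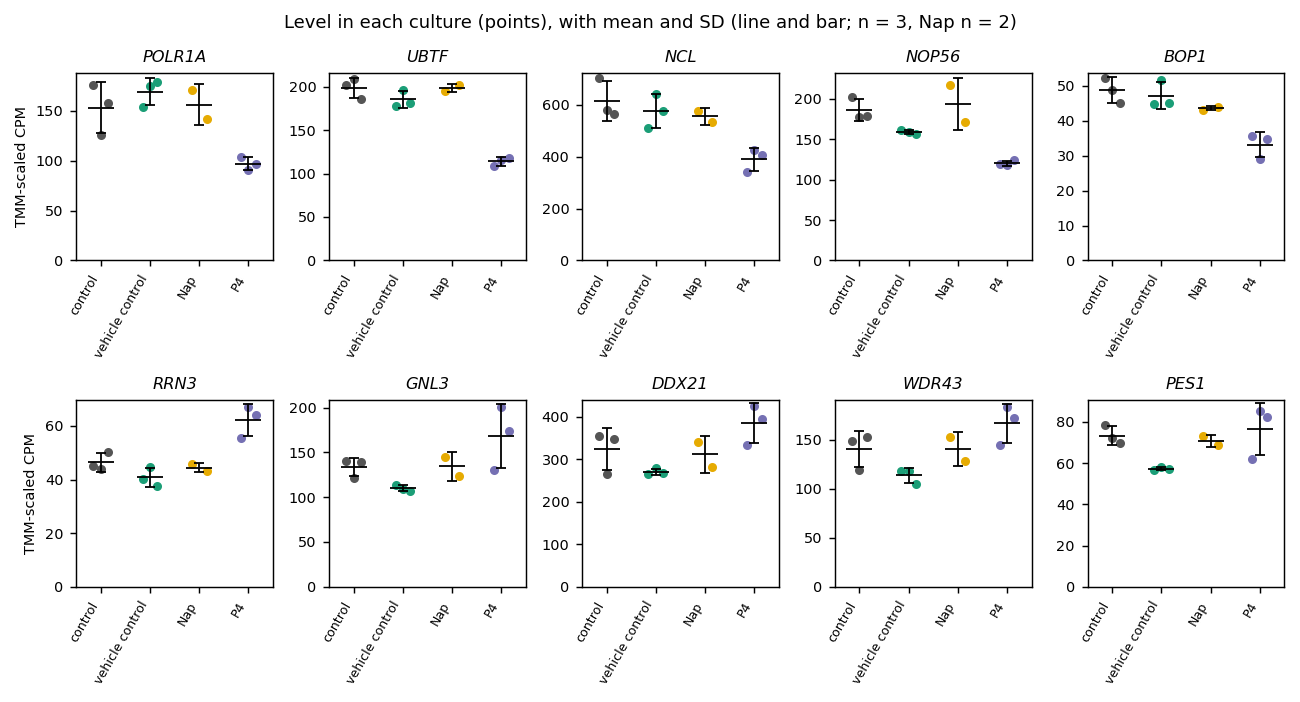
TMM-scaled CPM of 10 genes in each of the 11 cultures with a group (points), with the mean and SD of each group (line and bar); every axis starts at 0. The top row shows genes called lower in P4 than in vehicle control, whose P4 points lie below all others. The bottom row shows genes called higher. All genes shown except POLR1A also have a lower mean in vehicle control than in control.

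The 10 genes of the small subunit processome and 40S assembly had 3 calls, all higher, to which upper-quartile scaling added 3 lower ones. WDR43, a processome subunit that acts early on the precursor, was at 149, 119 and 152 CPM in the control cultures, 118, 118 and 105 in the vehicle control cultures, 153 and 128 in the Nap cultures and 144, 184 and 172 in the P4 cultures. The P4 cultures were above all vehicle control cultures, at a log2 fold change of 0.54 ± 0.09 (SE, adjusted p = 0.000244). UTP15, of the same early subcomplex, was at 53.6, 43.3 and 54.5 CPM in the control cultures, 46.4, 46.0 and 47.6 in the vehicle control cultures, 55.9 and 45.1 in the Nap cultures and 54.3, 67.7 and 64.7 in the P4 cultures. P4 replicate 1 lay among the control cultures and the other two above every culture without P4, and the log2 fold change was 0.40 ± 0.09 (SE, adjusted p = 0.00213). RRP9, which binds the U3 snoRNA, was at 22.2, 17.1 and 16.7 CPM in the control cultures, 14.2, 17.3 and 14.6 in the vehicle control cultures, 20.3 and 17.2 in the Nap cultures and 18.5, 21.5 and 21.8 in the P4 cultures. Here the P4 cultures were above vehicle control but overlapped with control, with a log2 fold change of 0.39 ± 0.12 (SE, adjusted p = 0.0126). That call was lost without vehicle control replicate 3 (adjusted p = 0.0685) or P4 replicate 3 (adjusted p = 0.0578). RRP12, an assembly factor also linked to subunit export, was at 58.7, 40.7 and 47.4 CPM in the control cultures, 54.1, 52.0 and 57.5 in the vehicle control cultures, 54.0 and 43.4 in the Nap cultures and 49.4, 62.4 and 56.6 in the P4 cultures. Its groups overlapped, at a log2 fold change of 0.03 ± 0.09 (SE, adjusted p = 0.811) that turned sign under upper-quartile scaling and without vehicle control or P4 replicate 2. The other 6 (BYSL, UTP4, NOP14, UTP20, HEATR1 and WDR75) were not called, with log2 fold changes from -0.30 in BYSL to 0.21 in WDR75.

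Among the 11 genes of 60S assembly, 4 fell and 2 rose (7 and 1 under upper-quartile scaling). BOP1, PES1 and WDR12 form the PeBoW complex, which is needed to process the 60S part of the precursor, and these 3 did not move alike. BOP1 was at 52.4, 48.8 and 45.0 CPM in the control cultures, 44.7, 51.6 and 45.1 in the vehicle control cultures, 43.2 and 44.1 in the Nap cultures and 35.7, 28.97 and 34.8 in the P4 cultures, with the P4 cultures below all others and a log2 fold change of -0.53 ± 0.10 (SE, adjusted p = 0.000835). PES1 was at 78.4, 72.0 and 69.7 CPM in the control cultures, 56.7, 58.1 and 57.2 in the vehicle control cultures, 73.0 and 68.6 in the Nap cultures and 62.1, 85.1 and 82.5 in the P4 cultures, with P4 above vehicle control in each culture and a log2 fold change of 0.40 ± 0.10 (SE, adjusted p = 0.00583). WDR12 was at 66.5, 56.0 and 62.0 CPM in the control cultures, 58.3, 56.6 and 52.9 in the vehicle control cultures, 61.3 and 52.5 in the Nap cultures and 54.5, 52.6 and 51.9 in the P4 cultures, and its log2 fold change was -0.09 ± 0.07 (SE, adjusted p = 0.347). So against vehicle control BOP1 was called lower and PES1 higher in the same cultures, and WDR12 was not called. Against control BOP1 and WDR12 were called lower, WDR12 in only 6 of 14 fits. PES1 was not called against control, at 0.04 ± 0.11 (SE, adjusted p = 0.778).

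RRS1, which helps to build the 5S ribonucleoprotein into the 60S precursor, was at 15.2, 10.9 and 12.2 CPM in the control cultures, 11.5, 12.7 and 12.3 in the vehicle control cultures, 11.0 and 10.5 in the Nap cultures and 6.25, 9.20 and 9.93 in the P4 cultures. P4 cultures were the 3 lowest, at a log2 fold change of -0.54 ± 0.16 (SE, adjusted p = 0.0136). The call was lost without vehicle control replicate 2 (adjusted p = 0.0627). RRS1 shares 11.4% of its exon bases with an overlapping gene on the same strand. NOP16 and NIP7, both 60S factors, also fell, at -0.50 ± 0.10 (SE, adjusted p = 0.00136) and -0.24 ± 0.09 (SE, adjusted p = 0.029). Genes on the opposite strand, ARL10 and COG8, overlap 12.0% and 20.2% of their exon bases. BRIX1, a factor of early 60S particles, rose at 0.27 ± 0.09 (SE, adjusted p = 0.024). NIP7 kept its call in 6 and BRIX1 in 9 of 14 fits, the one reported included. NOP2, an rRNA methyltransferase, was at 4.47, 2.44 and 2.53 CPM in the control cultures, 4.60, 4.65 and 4.27 in the vehicle control cultures, 4.41 and 4.50 in the Nap cultures and 1.92, 3.78 and 3.66 in the P4 cultures. It was the least abundant member and shares 54.4% of its exon bases with an overlapping gene on the same strand, where reads can be dropped as ambiguous. Its P4 cultures were below all vehicle control cultures but not below control, and the log2 fold change was -0.52 ± 0.24 (SE, adjusted p = 0.0849). PPAN, next in low abundance, shares 56.0% with the read-through gene PPAN-P2RY11 and was not called, at -0.41 ± 0.19 (SE, adjusted p = 0.0906). RRP1 and RRP1B, related nucleolar proteins, were not called either, at 0.12 and -0.11.

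Levels of different genes were compared per exon length, as RPKM from TMM-scaled CPM. In control cultures NPM1 (102 ± 2.17 RPKM, SD, n = 3) and NCL (88.9 ± 11.1) were the most abundant members, followed by DDX21 (64.4 ± 9.82). NOP58, GNL3 and NOLC1 came next at 42.4 ± 2.44, 40.3 ± 3.11 and 40.01 ± 4.58 RPKM, closer to each other than their SDs. Of the 42, only PPAN (1.28 ± 0.37) and NOP2 (0.67 ± 0.24) were below 2.86 RPKM, the level of POLR1C. The summed CPM of all 42 was 3845 to 4529 in control, 3692 to 3935 in vehicle control, 3806 to 4339 in Nap and 3329 to 3945 in P4 cultures, so the groups overlapped in the total.

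Against control cultures in untreated medium, the split leaned to lower levels. P4 cultures had 3 members higher and 19 lower, or 52.4% called, where 54.8% of 16620 genes were called, 26.8% of them higher and 28.0% lower. Without control replicate 1 the number called fell to 13 and without P4 replicate 3 to 14. All 12 genes called lower against vehicle control were also called lower here, a comparison that uses the same P4 cultures. UBTF was at -0.82 ± 0.09 (SE, adjusted p = 6.43e-07), POLR1A at -0.68 ± 0.11 (SE, adjusted p = 6.21e-05) and NCL at -0.68 ± 0.11 (SE, adjusted p = 4.39e-05). NOP56 was at -0.65 ± 0.09 (SE, adjusted p = 1.05e-05) and NHP2 at -0.63 ± 0.11 (SE, adjusted p = 8.6e-05). These 5 had the 5 most negative log2 fold changes of the list against control.

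A further 7 members, BYSL, LYAR, NOLC1, NOP14, NPM1, NPM3 and WDR12, were called lower against control and not against vehicle control, with the lowest value in NPM3 at -0.56 ± 0.12 (SE, adjusted p = 0.000751). The call of WDR12 (-0.24 ± 0.10 (SE, adjusted p = 0.0472)) was lost in 8 alternatives, among them DESeq2 (adjusted p = 0.103), the replicate block (adjusted p = 0.0780) and leaving out P4 replicate 2 or 3 or control replicate 1 or 3 (adjusted p from 0.0909 to 0.193). That of NPM1 was lost in 6, among them RLE scaling and the replicate block (adjusted p from 0.0523 to 0.189 over the 6). BYSL and NOLC1 were called lower in 7 of 14 fits, NOP14 in 11 and LYAR in 13, the one reported included. The P4 and control levels of BYSL and NOLC1 overlapped. NOP14-AS1 overlaps 17.1% of the exon bases of NOP14 on the opposite strand. Of the 8 genes higher against vehicle control, RRN3, UTP15 and GNL3 were called higher here too, and BRIX1, DDX21, PES1, RRP9 and WDR43 were not called. RRN3 held in each alternative, at 0.40 ± 0.10 (SE, adjusted p = 0.00269). GNL3, at 0.31 ± 0.13 (SE, adjusted p = 0.0467), lost its call under upper-quartile scaling (adjusted p = 0.0898), with at least 10 counts asked of every sample (adjusted p = 0.0524) and without any 1 of P4 replicates 2 and 3 and the 3 control replicates (adjusted p from 0.0766 to 0.213). UTP15, at 0.28 ± 0.11 (SE, adjusted p = 0.0394), lost it with DESeq2 (adjusted p = 0.0587), under upper-quartile scaling (adjusted p = 0.0891) and without P4 replicate 2 or 3 or control replicate 1 or 2 (adjusted p from 0.0540 to 0.198).

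**Figure D3:**
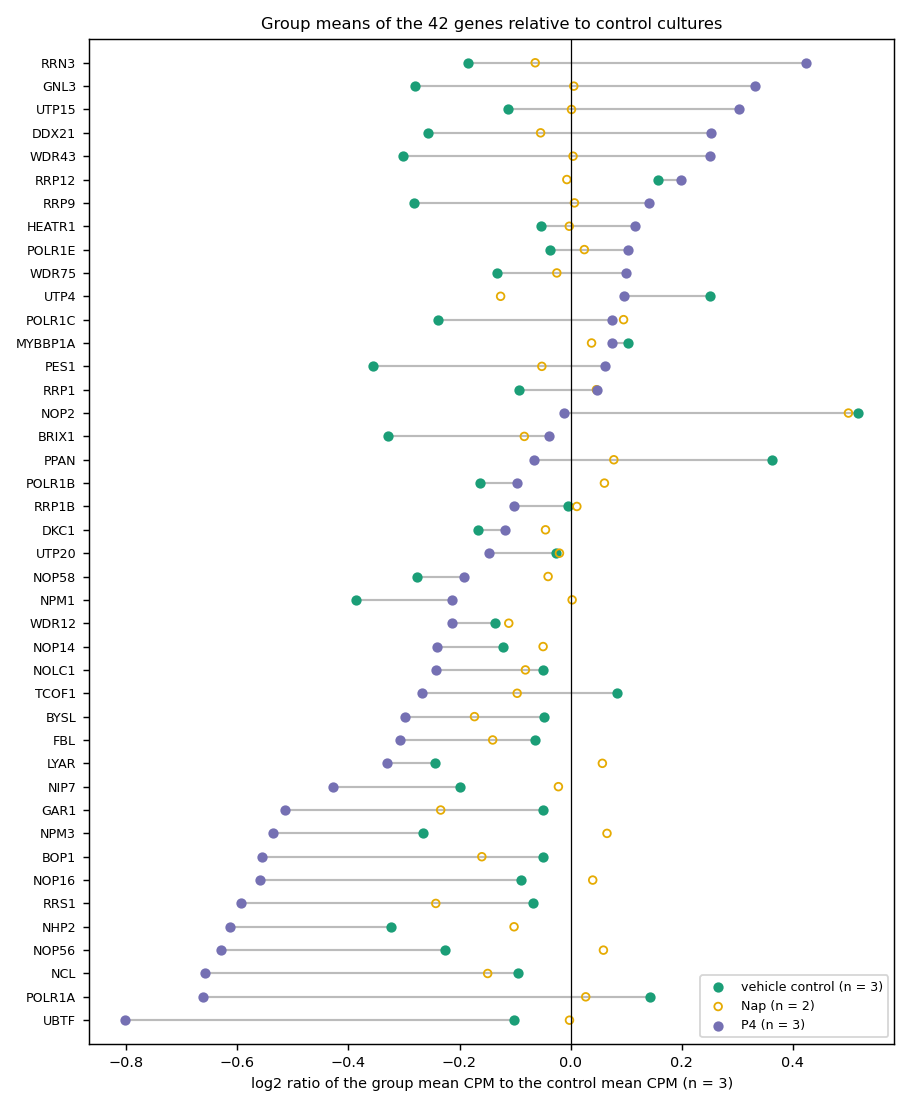
Log2 ratio of the mean CPM of vehicle control (green, n = 3), Nap (open, n = 2) and P4 (purple, n = 3) cultures to the mean of the 3 control cultures, for each of the 42 genes in the order of the P4 ratio. A grey line joins vehicle control to P4. It starts below 0 for most of the 42 genes, called or not, and UBTF has the lowest P4 ratio.

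Vehicle control cultures differed from control cultures in 10 members, all lower, where 22.6% of 16673 genes were called, 11.9% higher and 10.7% lower. The 10 are 23.8% of the list, close to the share among all genes, and none was called higher. They were NPM1, PES1, BRIX1, NHP2, WDR43, NPM3, GNL3, NOP58, DDX21 and NOP56. NPM1, the chaperone of the outer nucleolus, was at 389.7, 399 and 383 CPM in the control cultures, 314, 308 and 275 in the vehicle control cultures, 411 and 371 in the Nap cultures and 305, 349 and 356 in the P4 cultures. All vehicle control cultures were below all control cultures, at a log2 fold change of -0.39 ± 0.07 (SE, adjusted p = 0.000767). Reads that NPM1 shares with its pseudogenes were not counted. PES1 was at -0.35 ± 0.08 (SE, adjusted p = 0.00225), and it, NPM1 and BRIX1 (-0.32 ± 0.08 (SE, adjusted p = 0.00782)) were the 3 called in every alternative; the other 7 lost the call in at least 1. The number called was 3 without vehicle control replicate 3, 6 without vehicle control replicate 2, 10 with 4 higher without control replicate 1, and 16 without control replicate 2. It was also 6 with 4 groups in the fit. Of the genes higher in P4 than in vehicle control, 5 (BRIX1, DDX21, GNL3, PES1 and WDR43) are among the 10. Side by side, WDR43 was at -0.30 in vehicle control and 0.23 in P4 cultures, both against control, and PES1 at -0.35 and 0.04; the vehicle control and control cultures are shared between these comparisons. The vehicle itself and the handling of these cultures cannot be told apart.

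No member was called in Nap against control cultures. edgeR called 0.0% of 17166 genes, with 217 genes and no member at an unadjusted p under 0.05, and DESeq2 called 1 gene, which was no member. The log2 fold changes of the members ran from -0.24 to 0.49 with a median of -0.01.

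**Figure D4:**
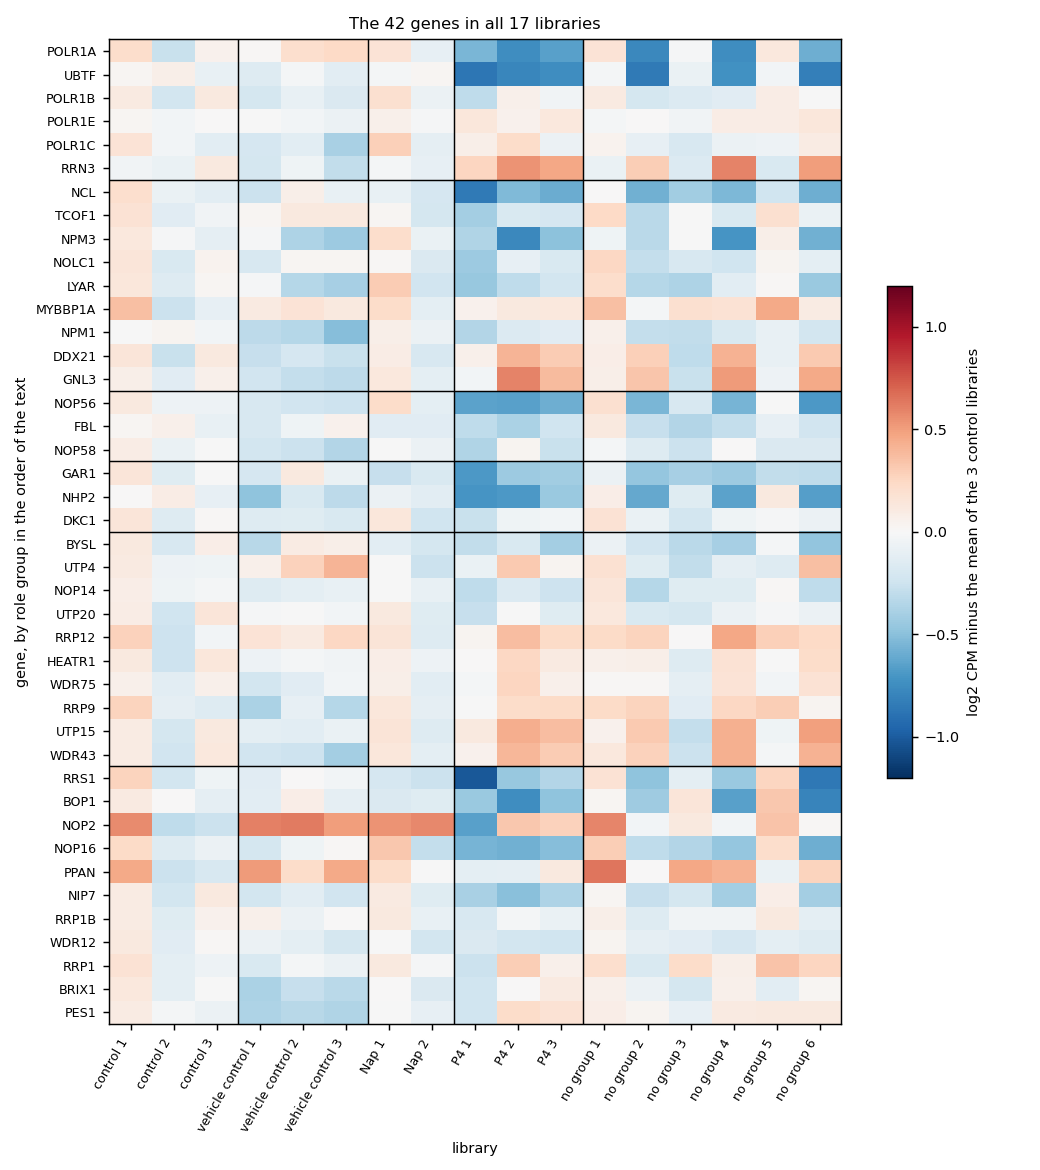
Log2 CPM of the 42 genes (rows, by role) in all 17 libraries (columns), minus the mean of the 3 control libraries; red is higher and blue lower than control. The P4 columns are blue for POLR1A, UBTF, NCL and NOP56 and red for RRN3, and the 6 libraries with no group are shown singly, in no comparison.

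The other genes of the pathway were listed by role, and more of them were called higher than lower against vehicle control. Of 129 further ribosome biogenesis genes, 52 were higher and 23 lower (median log2 fold change 0.15), or 58.1% called beside 53% of all genes; under upper-quartile scaling 36 were higher and 30 lower. Among 9 other RNA polymerase I factors 5 were higher and none lower, or 55.6% called, and against control 3 were higher and none lower. The lowest against vehicle control was TAF1C, not called at -0.06 ± 0.09 (SE, adjusted p = 0.577). TAF1A and TAF1D, subunits of the promoter factor SL1, rose at 1.00 ± 0.13 (SE, adjusted p = 4.9e-05) and 0.92 ± 0.11 (SE, adjusted p = 2.94e-05), and POLR1D and POLR1H, further polymerase subunits, at 0.36 ± 0.07 (SE, adjusted p = 0.000722) and 0.43 ± 0.13 (SE, adjusted p = 0.0129). So within RNA polymerase I itself POLR1A was called lower and POLR1D and POLR1H higher. Among 39 other 40S factors 13 were higher and 8 lower (11 and 10 under upper-quartile scaling), from IMP3, a U3 protein, at -0.55 ± 0.10 (SE, adjusted p = 0.000637) to DDX47, an RNA helicase, at 0.88 ± 0.21 (SE, adjusted p = 0.00342). Among 51 other 60S factors 24 were higher and 8 lower (17 and 11 under that scaling), from FTSJ3, an rRNA methyltransferase, at -0.65 ± 0.08 (SE, adjusted p = 1.76e-05) to SDAD1 at 0.86 ± 0.11 (SE, adjusted p = 3.12e-05). Of 30 genes of rRNA modification and the RNA exosome 10 were higher and 7 lower, which turned to 4 and 9 under that scaling, from EXOSC2 at -0.47 ± 0.08 (SE, adjusted p = 0.000312) to EXOSC8 at 0.80 ± 0.07 (SE, adjusted p = 2.92e-06), both exosome subunits. Against control the same 129 genes gave 28 higher and 33 lower (median -0.04), and vehicle control against control none higher and 35 lower.

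Genes of the cytosolic ribosomal proteins, which the assembly factors place on the rRNA, were called lower most often in vehicle control against control. In vehicle control against control cultures 53 of 84 cytosolic ribosomal protein genes were lower and 2 higher (65.5% called, beside 22.6% of all genes), with a median log2 fold change of -0.28. P4 against vehicle control had 36 of 83 higher and 4 lower (24 and 7 under upper-quartile scaling), with a median of 0.15. That is 48.2% called beside 53% of all genes. P4 against control had 2 higher and 15 lower, or 20.5% called beside 54.8% of all genes. Mitochondrial ribosomal protein genes were lower in 43 of 76 in vehicle control and lower in 41 of 76 in P4 cultures, both against control. The medians were -0.29 and -0.36. In both directions 56.6% and 55.3% of them were called, beside 22.6% and 54.8% of all genes. Of all genes 10.7% and 28.0% were lower in these comparisons. The 2 counts of lower mitochondrial genes were 38 and 49 under upper-quartile scaling and 34 and 36 with DESeq2. P4 against vehicle control gave 16 of them higher and 21 lower (48.7% called), and DESeq2 14 and 13. Many ribosomal protein genes have processed copies, whose shared reads were not counted.

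**Figure D5:**
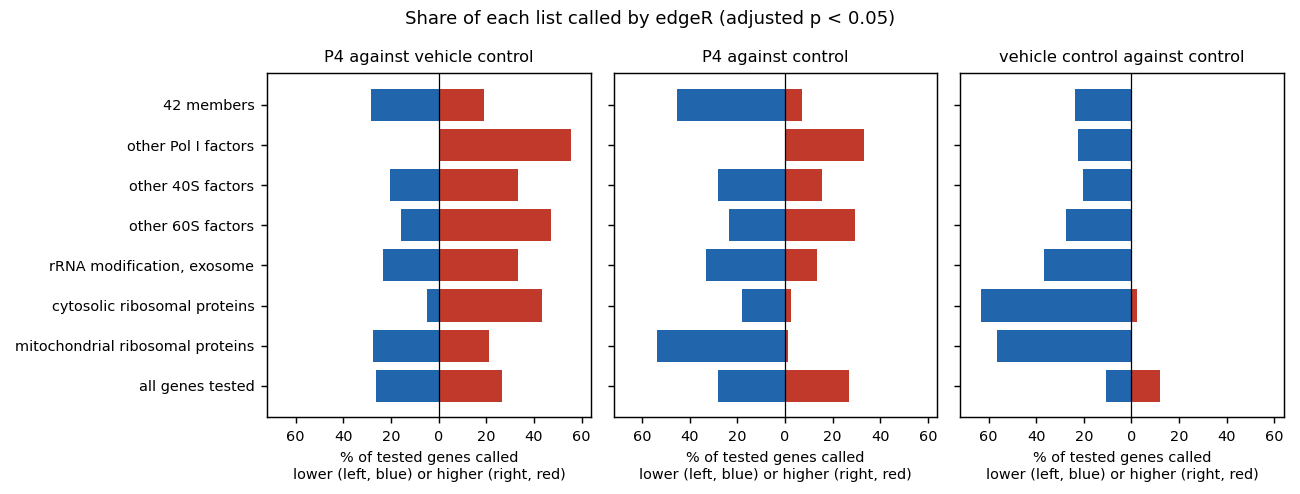
Share of each gene list called lower (blue, left) or higher (red, right) by edgeR in 3 comparisons, with all tested genes in the bottom bar. In P4 against vehicle control the members have 12 lower and 8 higher calls (8 and 8 with DESeq2) and the other assembly lists more higher than lower ones (for rRNA modification and the exosome this turns under upper-quartile scaling), and cytosolic ribosomal proteins are called lower mostly in vehicle control against control.

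MYC, the transcription factor known for driving ribosome biogenesis, was at 57.8 ± 14.5 CPM in control cultures, 69.3 ± 4.32 in vehicle control cultures and 106 ± 5.70 in P4 cultures (SD, n = 3), and rose against vehicle control at 0.60 ± 0.07 (SE, adjusted p = 3.18e-05). MYCL rose at 2.06 ± 0.17 (SE, adjusted p = 1.22e-06) and MYCN fell at -1.62 ± 0.21 (SE, adjusted p = 4.59e-05), though both were low, with mean levels in P4 cultures of 14.8 and 2.30 CPM. Of the 12 genes of the MYC network 7 were higher and 4 lower, or 91.7% called beside 53% of all genes. Besides MYC, only the genes with the highest and the lowest log2 fold change of this list are given with values. Of the 4 lower genes only MYCN is therefore named here. These are mRNA levels, and neither rRNA synthesis nor protein was measured in these libraries.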

How the data were processed

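RNA was sequenced from 11 Ishikawa cultures with a group and 6 without. The authors used a stranded total RNA kit and single-end reads, trimmed them with Cutadapt, kept those passing a quality filter (-q 20, -p 90), mapped them by Subread with only unique hits retained, and deposited raw gene counts from featureCounts with GENCODE release 31. Tool versions and the strand setting are not given in the sources used here. The number of count columns not used was 0.

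From the deposited counts, edgeR 4.0.16 in R 4.3.3 gave quasi-likelihood tests with TMM scaling and filterByExpr (minimum count 10), each fit holding only the 2 groups compared. P-values were adjusted over all genes tested. Levels are TMM-scaled CPM. DESeq2 1.42.0, RLE and upper-quartile scaling, other filters, a fit of 4 groups, a block on replicate number, and leaving out each replicate were alternatives. Names, exons and overlaps came from GENCODE 29 on GRCh38, and promoters from RefSeq on GRCh38.p14. In each role the 3 members of largest absolute log2 fold change against vehicle control and the 1 of smallest are given per culture, all members in groups of 3; NPM1 and PES1 were added after their values were seen. The lists of members, pathway genes and markers were chosen with earlier results of these data known. In simulated P4 and vehicle control counts with a dispersion of 0.02, above the 0.00635 measured, 22 of 50 genes changed 1.5-fold and 45 of 50 changed 2-fold were called. The labels call replicates biological, and no sample pair agreed within counting error (chi-square per degree of freedom 1.54 to 20.6). 1 further gene list is not reported here.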

Additional observations from a re-analysis of the deposited data

Results flagged for a closer look

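The 6 libraries whose labels contradict each other on P4 entered no comparison. In at least 3 of them 8 members stood above the highest of the 3 control libraries. That is 19.0% beside 41.1% of the 16540 genes tested in P4 against vehicle control. Below the lowest control stood 20 members, or 47.6% beside 39.9%. The highest levels among the 6 were 428 CPM for DDX21 (highest control 355), 190.2 for GNL3 (139.9), 187 for WDR43 (152), 79.3 for PES1 (78.4), 70.6 for UTP15 (54.5), 70.1 for RRN3 (50.4), 45.2 for POLR1E (41.9) and 37.9 for RRP1 (33.9). For GNL3 and RRP1 4 of the 6 libraries lay above, for the others 3. With no group these values could not be tested.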

How the results depend on the processing

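Over all alternatives, 13 members kept their call in P4 against vehicle control (BOP1, DDX21, GNL3, NCL, NOP16, NOP56, PES1, POLR1A, RRN3, TCOF1, UBTF, UTP15 and WDR43), 12 in P4 against control and 3 in vehicle control against control. For P4 against vehicle control, upper-quartile scaling gave 19 members lower, DESeq2 8 higher and 8 lower, and leaving out 1 replicate gave 14 to 27 called, 6 to 13 higher and 7 to 15 lower. For P4 against control, 1 was higher under upper-quartile scaling and 5 with 4 groups in the fit; leaving out 1 replicate gave 13 to 20 called, 1 to 5 higher and 11 to 19 lower. For vehicle control against control, 6 were called with 4 groups in the fit, all 6 lower, and 1 was higher under upper-quartile scaling; leaving out 1 replicate gave 3 to 16 called, 0 to 4 higher, 3 to 16 lower and 1908 to 3995 of all genes. Under upper-quartile scaling the log2 fold change of 4 uncalled genes changed sign, in DKC1 (-0.0528), NOP58 (-0.0140), POLR1B (-0.0389) and RRP12 (-0.0602). With 1 replicate left out NOP58 ran from -0.0366 to 0.157, POLR1B from -0.0201 to 0.147 and RRP12 from -0.0424 to 0.115. Of the values of the genes given per culture in P4 against vehicle control, 289 kept direction and call, 12 lost the call and 3 gained it. Nap against control gave 0 members in all alternatives and 0 to 5 of all genes with a replicate left out, 1 with DESeq2 or 4 groups and 3 without a filter; with 1 Nap culture left, that culture is assumed to vary like the control cultures. The causes were not tested.

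Same-numbered replicates did not deviate together in the comparisons with 3 pairs (correlation from -0.08 to 0.08). The 2 Nap pairs correlated at 0.25 and 0.31, but 2 pairs were too few to take the numbers as pairs. Different numbers gave -0.14 on average, which is no separate observation. The 2 Nap cultures were centred on their own mean, so their deviations are exact opposites and fix that average. With the replicate block, 24 members (10 higher, 14 lower) were called in P4 against vehicle control, 18 (3 and 15) in P4 against control, 13 (2 and 11) in vehicle control against control and 0 in Nap, where 42 of all genes were called. The depth of 4999521 counts in vehicle control replicate 1 and the low counts of NOP2 and PPAN limit the precision.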

Other observations

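The 6 libraries with no group are given singly, numbered as in the heat map, as values with no comparison. By column name libraries 2, 4 and 6 had P4 with PSAT1, while by title the others did. UBTF was at 195, 110.2, 188, 120.3, 194 and 112 CPM in libraries 1 to 6, and the values fell into 2 ranges of 3 libraries each. POLR1A was at 171, 88.8, 150.0, 90.5, 166 and 101 CPM and NOP56 at 212, 127, 162, 126, 185 and 115, with libraries 2, 4 and 6 the 3 lowest in each. RRN3 was at 43.9, 57.0, 41.2, 70.1, 40.9 and 65.6 CPM, and here libraries 2, 4 and 6 were the 3 highest. NCL was at 615, 410.4, 460.0, 422, 520.2 and 409 CPM, again with libraries 2, 4 and 6 the lowest. Not every member called in P4 against vehicle control sorted in this way. FBL was lowest in library 3, at 47.0 CPM, and RRP9 was highest in library 5, at 22.8 CPM. How many members sorted by these libraries was not counted.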
